A study of Neotoma stephensi and Rattus norvegicus with 6 samples.

Results

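The genes described here encode matrix metalloproteinases (Mmp), disintegrin metalloproteinases (Adam), their secreted relatives with thrombospondin repeats (Adamts and the Adamts-like genes) and the tissue inhibitors of metalloproteinases (Timp). Members were taken by symbol: Mmp, Timp or Adam followed by a digit, or any symbol that begins with Adamts. This gave 56 of the 15481 mouse genes in the count files, namely 16 Mmp, 4 Timp, 14 Adam, 17 Adamts and 5 Adamts-like genes. The measurements were polyA RNA-Seq read counts from the foregut, a piece of the fornix ventricularis of the stomach, in 3 Stephens' woodrats (Neotoma stephensi) and 3 Sprague Dawley lab rats (Rattus norvegicus). The woodrats were caught in the wild and fed juniper foliage, and harbor a dense foregut microbial community, whereas the lab rats were bought, housed in the laboratory and fed rat chow. All animals were female; the sample labels call them virgin, while the study's methods leave this unknown for the woodrats, and ages are not given in the sources used here. Species, diet, origin and housing differ together between the groups and cannot be told apart.

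Metalloproteinases cut proteins with the help of a zinc ion at the active site. Secreted and membrane-bound Mmp enzymes cleave collagens, other matrix proteins and signalling proteins around the cell, Adam enzymes mostly release the outer parts of membrane proteins such as growth factors and receptors, and Adamts enzymes act on proteoglycans, procollagens and other secreted proteins. Most are made as inactive precursors, and Timp proteins block the active enzymes. In a stomach wall such as this one, squamous epithelium, fibroblasts, smooth muscle, vessels and leukocytes can all contribute these transcripts. In RNA from whole tissue, fewer cells of a type and less RNA per cell cannot be told apart.

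The libraries held between 5439642 and 7932637 counted reads per animal, and 3 reads, taken here as the detection floor, corresponded to between 0.355 and 0.586 CPM (read counts scaled to library size, with TMM normalization) in a library. The 8 squamous epithelium markers checked were all in the files and all passed the filter on low counts, with a summed level of 13691 to 35169 CPM in woodrats and 10468 to 15606 CPM in lab rats. The 5 glandular stomach markers in the files summed to between 7.49 and 11.1 CPM in woodrats and between 6.74 and 9.92 CPM in lab rats. The files hold 0 genes without any woodrat read but 809 without any lab rat read, so a member read in lab rats alone would not be seen. Accordingly 0 members lacked woodrat reads, 3 lacked lab rat reads, and 31 further mouse genes of these families, among them Mmp3, Mmp7, Mmp10 and Mmp12, are not analysed here.

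Foregut metalloproteinase transcripts differed between the species in both directions, and the largest differences were toward lab rats. Of the 56 members, 41 had at least 1 CPM in at least 3 animals and were tested. At a false discovery rate (FDR) below 0.01 in the edgeR quasi-likelihood test, 11 of the 41 (26.8%) were differentially abundant, beside 20.0% of all 12603 genes tested. Mmp17, Adam19, Adam33 and Adamts8 were more abundant in woodrats, which is 4 members where 10.3% of all genes were. Mmp2, Mmp19, Mmp23, Mmp28, Adam8, Adam28 and Adamts7 were less abundant in woodrats, which is 7 members where 9.71% of all genes were. The log2 fold changes of woodrats over lab rats ran from -6.42 for Adam28 to 2.45 for Mmp17, with a median of 0.34 over the 41 tested members and 0.03 over all genes tested. At an FDR below 0.05, 20 of the 41 (48.8%) passed, beside 39.9% of all genes. DESeq2, at the same FDR of 0.01, called 15 of the 41, beside 31.1% of all genes, and edgeR with the animal number as a block called 5, beside 5.68%. The 2 species did not overlap in 24 of the 41 members (58.5%), beside 56.2% of all genes tested. Every woodrat was above every lab rat in 14 of them, beside 28.8% of all genes, and below in 10, beside 27.4%. A gene that passes the filter through the animals of 1 species alone cannot overlap. Adam28 and Adam1a passed through the lab rats alone and Adamts4 through the woodrats alone, so their separation followed from the filter. The shares over all genes can include such genes too.

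**Figure D1:**
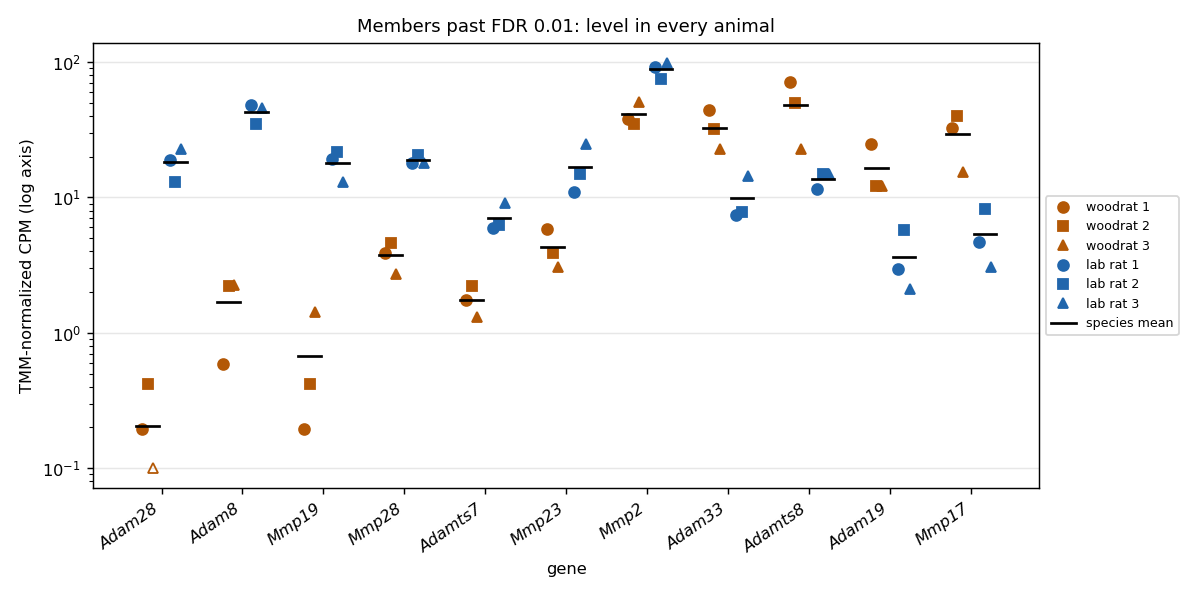
Level of the 11 members past an FDR of 0.01 in each of the 6 animals (TMM-normalized CPM on a log axis; orange for woodrats, blue for lab rats, one symbol shape per animal number, black bars for species means). The open triangle at the bottom marks Adam28 in woodrat 3, which had 0 reads and is drawn at 0.1 CPM; the species do not overlap in any of these genes, with Adam28, Adam8 and Mmp19 farthest apart.

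Among the secreted matrix metalloproteinases, the gelatinase Mmp2 (ENSMUSG00000031740.7), which degrades denatured collagen and basement membrane collagen, was less abundant in woodrats. Woodrats 1, 2 and 3 had 38.1, 34.6 and 50.8 CPM, and lab rats 1, 2 and 3 had 91.3, 75.3 and 98.4 CPM. Every woodrat lay below every lab rat, by a log2 fold change of -1.10 (standard error, SE, 0.25, FDR = 0.00927). The other gelatinase, Mmp9, which is stored in neutrophil granules, was too low to test, with 9, 2 and 9 reads from the woodrats against 1, 0 and 0 from the lab rats. The collagenases Mmp8 and Mmp13, which cut fibrillar collagen, also had few reads. Mmp8 had 3 reads, all in woodrat 2, and Mmp13 had 1 read in the same animal, and neither had a read in a lab rat. Stromelysin-3 (Mmp11), a product of stromal cells in remodelling tissue, averaged 6.28 ± 3.68 CPM (SD, n = 3) among woodrats and 11.8 ± 0.745 CPM (SD, n = 3) among lab rats, a difference that did not pass the test (FDR = 0.129).

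Mmp19, Mmp23 and Mmp28, the 3 tested members outside the classical collagenase, gelatinase, stromelysin and membrane-type groups, were all less abundant in woodrats. Mmp19 (ENSMUSG00000025355.6), an enzyme known from epidermal basal keratinocytes and from macrophages, received 1, 3 and 12 reads from woodrats 1, 2 and 3, against 154, 131 and 67 from lab rats 1, 2 and 3. Scaled to library size, these were 0.195, 0.416 and 1.42 CPM against 19.1, 21.7 and 12.9 CPM. Woodrats 1 and 2 were at or below the 3-read floor, and the highest woodrat was far below the lowest lab rat, by a log2 fold change of -4.58 ± 0.58 SE (FDR = 0.00106). Mmp28 (ENSMUSG00000020682.16), or epilysin, is made by keratinocytes among other cells. It had 3.91, 4.58 and 2.72 CPM in the woodrats and 18.0, 20.7 and 18.1 CPM in the lab rats. The lab rats lay close together, with a coefficient of variation of 8.02%, and all stood above the woodrats, by a log2 fold change of -2.34 ± 0.32 SE (FDR = 0.00137). Mmp23 (ENSMUSG00000029061.2), which lacks the usual cysteine switch of its family, had 5.86, 3.89 and 3.08 CPM in woodrats and 10.9, 14.9 and 24.7 CPM in lab rats. The lab rats were spread over a wider range here, yet none reached down to the woodrats (log2 fold change -1.98, SE 0.42, FDR = 0.00711). In the same libraries, of the 8 squamous epithelium markers, 1 was higher (Krt4) and 1 lower (Ivl) in woodrats and 6 did not pass the test. The part of the epithelium in these differences was not tested. Mmp21 and Mmp27 had at most 5 reads in any animal and were not tested.

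Leaving out 1 animal also changed the calls over all genes, from 2516 to between 898 and 2626. A call lost in such a fit therefore does not show that the gene rested on 1 animal. With each animal left out in turn, Mmp19 and Mmp28 stayed below an FDR of 0.01 in all 6 fits, with log2 fold changes from -5.72 to -4.22 and from -2.56 to -2.15. The FDR of Mmp2 was 0.0243 and 0.045 without woodrats 1 and 2 and 0.0363, 0.0221 and 0.0216 without lab rats 1, 2 and 3. That of Mmp23 was 0.0317 and 0.0157 without woodrats 2 and 3 and 0.0115, 0.0198 and 0.0207 without lab rats 1, 2 and 3. Their directions held in all 6 fits, with log2 fold changes from -1.28 to -1.02 for Mmp2 and from -2.26 to -1.61 for Mmp23.

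The membrane-type enzymes are anchored at the cell surface, where they cleave matrix and other proenzymes. Mmp17 (ENSMUSG00000029436.9), which is held by a lipid anchor and is known from vascular smooth muscle, was the one membrane-type member past the threshold. Its level was 32.8, 40.1 and 15.4 CPM in the woodrats, against 4.72, 8.27 and 3.08 CPM in the lab rats. All woodrats were above all lab rats, by a log2 fold change of 2.45 ± 0.48 SE (FDR = 0.0053). Mmp14 (ENSMUSG00000000957.9), the main activator of proMmp2, had 91.0, 64.7 and 59.3 CPM in woodrats and 40.2, 41.8 and 37.0 CPM in lab rats. The species did not overlap, but the log2 fold change of 0.85 (SE 0.24) did not pass the threshold (FDR = 0.0244). Mmp15, Mmp16 and Mmp24 overlapped between the species, with FDR values from 0.651 to 0.937, and Mmp25 had at most 8 reads in any animal and was not tested. The FDR of Mmp17 was 0.0113 and 0.0224 without woodrats 1 and 2 and 0.0222 and 0.0226 without lab rats 1 and 3.

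None of the 4 inhibitors passed the FDR threshold of 0.01 in the edgeR test, while 2 had an unadjusted p below 0.05 (Timp1 at 0.0254 and Timp3 at 0.00221) and DESeq2 called Timp3. All 4 had a positive log2 fold change. Timp3 (ENSMUSG00000020044.12), which is bound to the matrix and also inhibits Adam17 and Adamts enzymes, came closest. Woodrats 1, 2 and 3 had 32.8, 25.0 and 15.5 CPM and lab rats 1, 2 and 3 had 6.70, 8.77 and 2.70 CPM. The species did not overlap, with a log2 fold change of 2.00 ± 0.46 SE (FDR = 0.0107). Of 7 other settings of scaling, filter or model, 2 called Timp3. DESeq2 gave it an adjusted p of 0.00029, and the edgeR test with no filter on low counts gave an FDR of 0.00824. In the rest the edgeR FDR ran from 0.0101 with the newer method to 0.0277 with total counts only. Without woodrat 3 the FDR was 0.00562, and over the other 5 fits that left out 1 animal it ran from 0.0175 to 0.0348.

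Timp1 (ENSMUSG00000001131.10), which inhibits many secreted Mmp enzymes, had 85.2, 49.6 and 38.0 CPM in woodrats and 23.1, 25.6 and 39.7 CPM in lab rats. Lab rat 3 was above woodrat 3, and a log2 fold change was 0.97 ± 0.36 SE (FDR = 0.0599). Timp2 (ENSMUSG00000017466.8) inhibits these enzymes and, bound to Mmp14, helps to activate proMmp2. It had 238, 179 and 135 CPM in woodrats and 137, 112 and 189 CPM in lab rats, which overlapped widely (log2 fold change 0.33, SE 0.31, FDR = 0.412). Timp4 (ENSMUSG00000030317.7) was close to the floor, with 7, 12 and 7 reads from woodrats against 8, 1 and 10 from lab rats, and its direction was not stable (log2 fold change 0.34, SE 0.70, FDR = 0.729, and -0.16 without lab rat 2). For the activation set of Mmp14, Timp2 and Mmp2, then, the activator and the proenzyme had differences of opposite sign, and only that of Mmp2 passed the threshold.

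**Figure D2:**
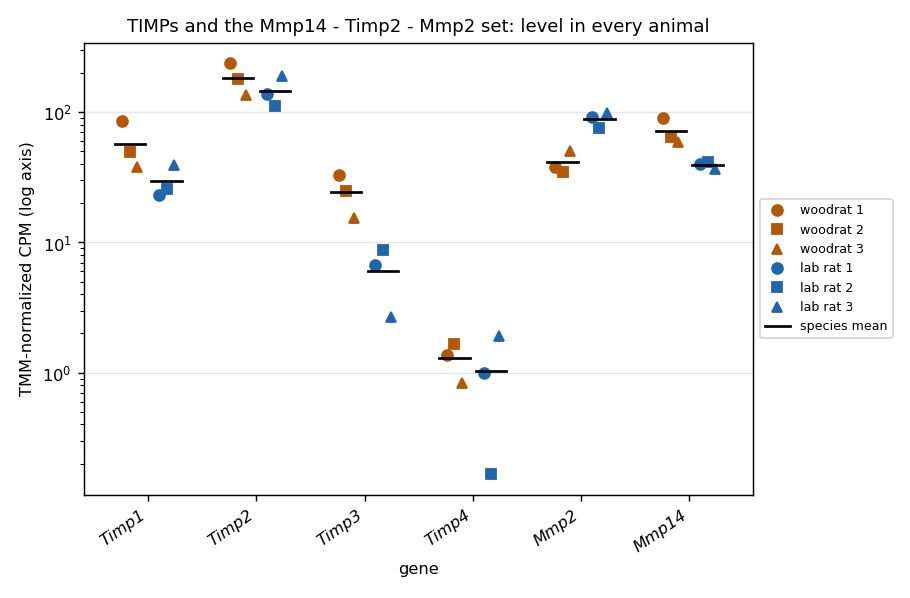
Level of the 4 Timp genes, Mmp2 and Mmp14 in each animal (TMM-normalized CPM on a log axis; colours, symbols and bars as in the plot of called members). Woodrats and lab rats are apart for Timp3, Mmp2 and Mmp14 and overlap for Timp1, Timp2 and Timp4.

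The woodrats themselves differed in these genes. Woodrat 1 was the highest and woodrat 3 the lowest woodrat in 14 of the 41 tested members (34.1%), beside 25.4% of all genes tested. Of these, Timp1, Timp2, Timp3, Mmp14, Mmp16, Adam33, Adamts8, Adamts12 and Adamtsl5 had positive log2 fold changes of woodrats over lab rats. The rest of the 14, Mmp11, Mmp23, Adam1a, Adamts2 and Adamts14, had negative ones. Mmp17 and Adam19, both called more abundant in woodrats, were not among the 14. The summed level of 8 smooth muscle markers had the same order as the 14, with 122901, 59583 and 40275 CPM in woodrats 1, 2 and 3, against 10773 to 19563 CPM in the lab rats. The opposite order was found in 9 members (22.0%), beside 26.8% of all genes. These were Adam8, Adam15, Adam17, Mmp15 and Mmp19, with negative log2 fold changes, and Adam9, Adam10, Adam23 and Adamtsl2, with positive ones. The summed level of the 8 squamous epithelium markers was ordered in that way, with 13691, 28900 and 35169 CPM. The part of muscle or epithelium in these orders was not tested. The median coefficient of variation over the tested members was 37.2% among woodrats and 32.7% among lab rats.

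**Figure D3:**
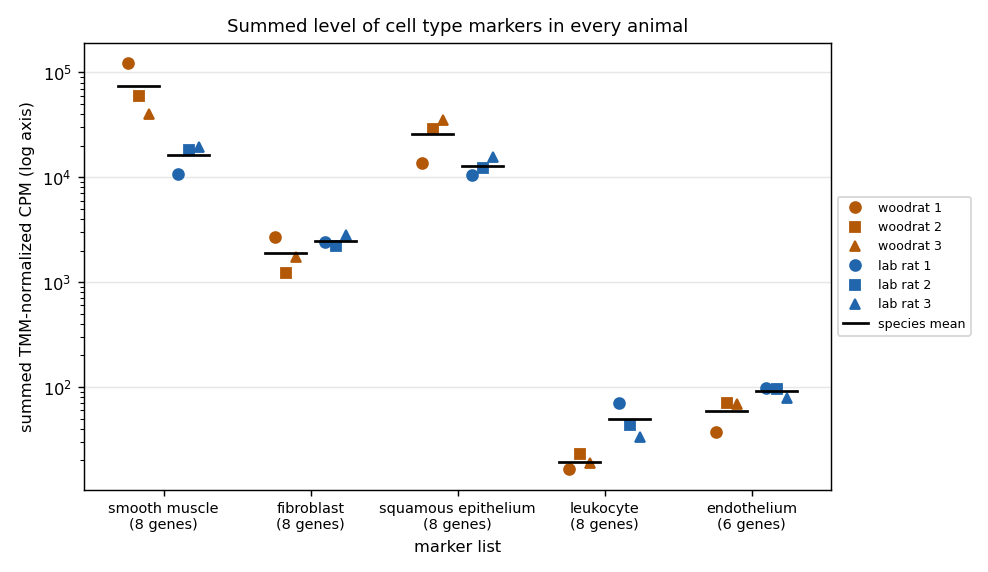
Summed TMM-normalized CPM (log axis) of the marker lists of 5 cell types in each animal, with species means as black bars. The smooth muscle sum is higher in every woodrat than in any lab rat, and the leukocyte and endothelium sums are lower. The fibroblast and squamous epithelium sums overlap. Single markers can differ from their sum: of the leukocyte list, S100a9 and Cd79a were higher in every woodrat and Cd68 overlapped.

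The Adam genes held both the largest differences of the whole set. Adam28 (ENSMUSG00000014725.13), first known from lymphocytes, received 1, 3 and 0 reads from woodrats 1, 2 and 3, against 153, 79 and 119 from lab rats 1, 2 and 3. All woodrats were at or below the 3-read floor, while the lab rats had 19.0, 13.1 and 22.9 CPM. The log2 fold change was -6.42 ± 0.66 SE (FDR = 0.000551). From the 4 woodrat and 351 lab rat reads in total, the abundance in lab rats was 94.4 times that in woodrats, with an exact 95% interval from 36.6 to 349 that covers counting error only. Adam8 (ENSMUSG00000025473.15), a sheddase of neutrophils, macrophages and other leukocytes, had 0.586, 2.22 and 2.25 CPM in woodrats and 48.3, 34.6 and 45.8 CPM in lab rats. The lowest lab rat was far above the highest woodrat, with a log2 fold change of -4.60 ± 0.45 SE (FDR = 0.000483).

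The leukocyte markers did not all differ in 1 direction. Of the 8 markers examined, 4 passed the filter, and Ptprc, Csf1r and Itgam were lower in woodrats while Cd68 did not pass the test. The summed level of the 8 ran from 16.4 to 22.9 CPM in woodrats and from 33.7 to 70.1 CPM in lab rats. Ptprc, which marks all leukocytes, had 1, 5 and 4 reads from woodrats against 75, 27 and 11 from lab rats. Itgam was at 0 reads in woodrat 1. Of the 4 markers under the filter, the T cell gene Cd3e had fewer reads in every woodrat than in any lab rat (1, 2 and 1 against 12, 5 and 3). The neutrophil gene S100a9 had more (45, 6 and 7 against 5, 2 and 2), as did the B cell gene Cd79a (5, 11 and 3 against 2, 0 and 0). S100a8 had at most 4 reads in any animal and overlapped. The part of leukocytes in the Adam8 and Adam28 differences was not tested.

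Adam19 and Adam33 were more abundant in woodrats. Adam19 (ENSMUSG00000011256.15), which sheds neuregulin and acts in heart development, had 25.0, 12.1 and 12.1 CPM in woodrats and 2.98, 5.79 and 2.12 CPM in lab rats. The lowest woodrat had more than the highest lab rat, with a log2 fold change of 2.16 ± 0.48 SE (FDR = 0.00883). Adam33 (ENSMUSG00000027318.16), known from airway smooth muscle cells and fibroblasts, had 43.9, 31.8 and 22.6 CPM in woodrats and 7.45, 7.77 and 14.4 CPM in lab rats. Again the species did not overlap, with a log2 fold change of 1.73 ± 0.38 SE (FDR = 0.00829). Of the 8 smooth muscle markers, 3 were higher in woodrats, 0 lower and 5 did not pass the test. In all 8, every woodrat was above every lab rat, as in 28.8% of all genes tested. Myh11, Des and Cnn1 fell just short, with log2 fold changes of 2.43, 2.70 and 2.66 (FDR = 0.0102, 0.0106 and 0.0109). In a limited sample, the paper's histology found larger shares of muscularis propria and total muscle in woodrats. The share of muscularis mucosae was larger in lab rats. Among 8 fibroblast markers, 1 was higher (Thy1) and 1 lower (Dcn), and their summed level was 1216 to 2706 CPM in woodrats and 2201 to 2815 CPM in lab rats. The part of these cells in the differences was not tested.

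The broadly expressed sheddases stayed short of the threshold. Adam10, which starts the cleavage of Notch receptors and cadherins, had 33.4, 52.2 and 52.2 CPM in woodrats and 24.7, 20.2 and 7.90 CPM in lab rats (log2 fold change 1.38, SE 0.41, FDR = 0.0283). Adam15, a sheddase with an integrin-binding domain, had 57.8, 119 and 127 CPM in woodrats and 209, 207 and 231 CPM in lab rats (log2 fold change -1.09, SE 0.32, FDR = 0.0261). Neither gene overlapped between the species, and their differences pointed in opposite directions. Under DESeq2 the adjusted p was 0.00711 for Adam10 and 0.00528 for Adam15, both past the threshold. Each gene was called in only 1 of 7 other settings of scaling, filter or model, which was DESeq2. Adam17, which releases tumor necrosis factor and ligands of the epidermal growth factor receptor, was lowest in woodrat 1, at 14.3 CPM, and reached 68.2 CPM in woodrat 3. That span covered lab rat 3 at 36.8 CPM and lab rat 1 at 64.9 CPM, although lab rat 2 lay just above it at 69.6 CPM (FDR = 0.345). Adam9, a relative of these sheddases, had 61.7, 65.7 and 77.1 CPM in woodrats against 55.1, 58.7 and 25.4 CPM in lab rats, with every woodrat above every lab rat (FDR = 0.208). Adam12 had at most 3 reads in any animal and was not tested.

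Of the members that lack a catalytic site and act in cell adhesion, Adam23 was tested and overlapped between the species (FDR = 0.739), and its small log2 fold change of 0.24 turned to -0.027 without woodrat 3 and -0.073 without lab rat 3. Adam11 and Adam22 had at most 8 reads in any animal and were not tested. Adam1a, a gene of sperm with the close paralog Adam1b, had 4, 5 and 2 reads from woodrats against 20, 9 and 19 from lab rats (log2 fold change -2.17, SE 0.59, FDR = 0.0204). Its reads may be shared with that paralog. Adam30 had at most 3 reads in any animal.

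The Adam8 and Adam28 calls held in all 6 fits that left out 1 animal, with log2 fold changes from -4.86 to -4.25 and from -7.64 to -5.75; at so few reads the fitted value for Adam28 depends on the prior count. The FDR of Adam19 was 0.0208 and 0.0193 without woodrats 1 and 2 and 0.0374, 0.0113 and 0.0324 without lab rats 1, 2 and 3. That of Adam33 was 0.0215 and 0.0314 without woodrats 1 and 2 and 0.0347 and 0.0356 without lab rats 1 and 2.

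**Figure D4:**
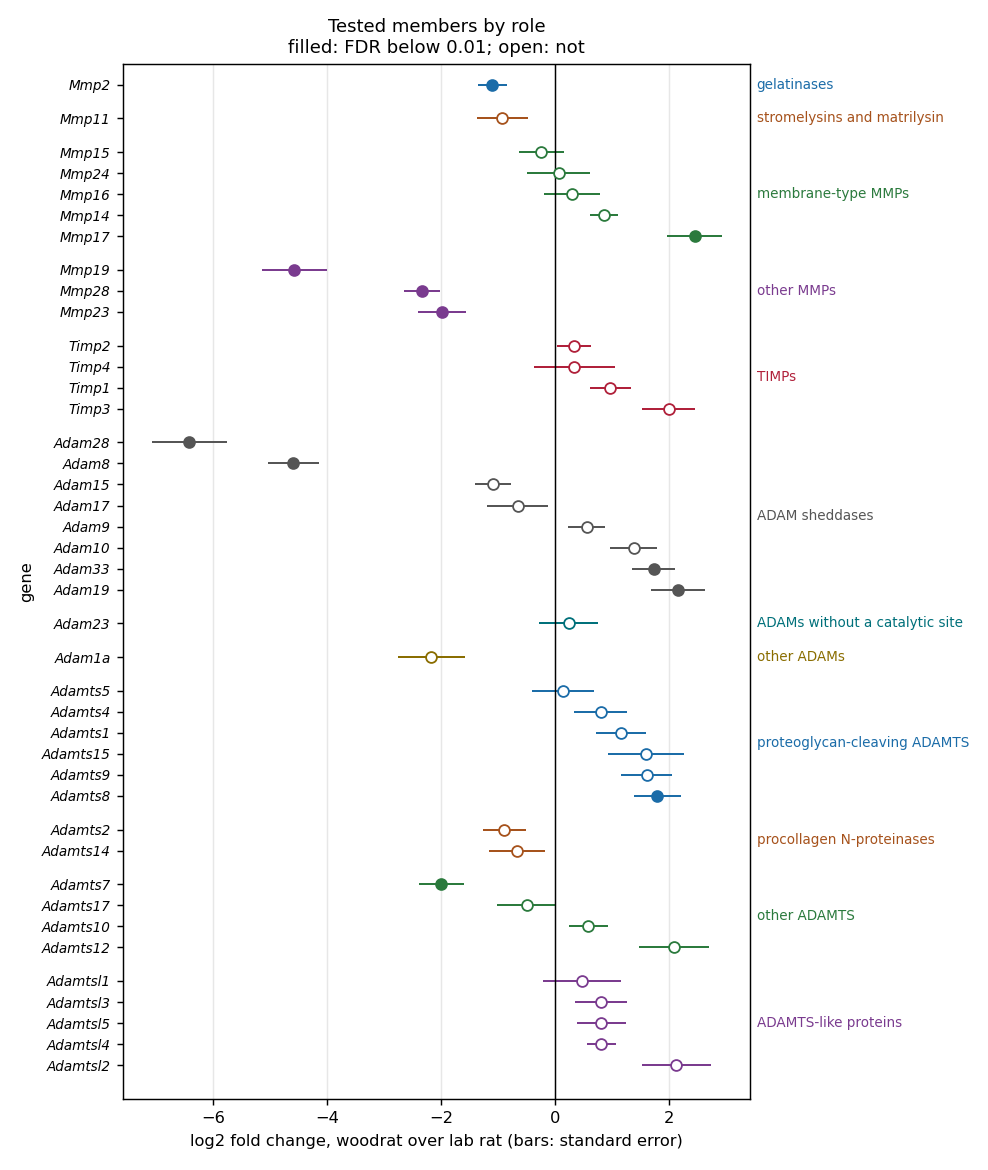
Log2 fold change of woodrats over lab rats for the 41 tested members, ordered by role, with standard errors as bars; filled points passed an FDR of 0.01. The secreted Mmp members and the procollagen proteinases lie left of 0, the Timp, proteoglycan-cleaving Adamts and Adamts-like members lie right of 0, and the Adam sheddases span from -6.42 to 2.16.

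Among the Adamts enzymes that cleave aggrecan, versican and other proteoglycans, 6 were tested, all 6 had a positive log2 fold change, and 1 passed the threshold. Adamts8 (ENSMUSG00000031994.12), also studied as an inhibitor of vessel growth, had 71.3, 49.4 and 22.6 CPM in woodrats and 11.5, 14.9 and 14.8 CPM in lab rats. The woodrats were all above the lab rats, by a log2 fold change of 1.79 ± 0.41 SE (FDR = 0.00979). Of 7 other settings of scaling, filter or model, 3 called Adamts8. In the rest the edgeR FDR ran from 0.011 with DESeq2 size factors to 0.0398 with the replicate block. The lab rats hardly varied, with a coefficient of variation of 13.9%, against 51.0% among woodrats. Adamts9, with log2 fold change 1.60 and FDR = 0.0231, and Adamts1, with 1.15 and FDR = 0.0648, were each above all lab rats in all woodrats. Adamts4, Adamts5 and Adamts15 had FDR values from 0.0868 to 0.857, the log2 fold change of Adamts5 turned from 0.14 to -0.51 without woodrat 2 and -0.056 without lab rat 3, and Adamts20 had at most 4 reads in any animal.

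The procollagen N-proteinases remove the amino-terminal propeptide from fibrillar procollagens. Adamts2 had 36.5, 21.2 and 14.8 CPM in woodrats and 33.9, 39.0 and 61.1 CPM in lab rats. Woodrat 1 exceeded lab rat 1, and the difference did not pass the test (log2 fold change -0.89, SE 0.38, FDR = 0.0937). Adamts14 overlapped as well (FDR = 0.298), and Adamts3 had at most 4 reads in any animal.

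Of the other Adamts genes, Adamts7 (ENSMUSG00000032363.14), which cleaves cartilage oligomeric matrix protein and is linked to vascular disease, was less abundant in woodrats. Its level was 1.76, 2.22 and 1.30 CPM in the woodrats, against 5.96, 6.29 and 9.05 CPM in the lab rats. The species were separate, with a log2 fold change of -2.00 ± 0.40 SE (FDR = 0.00561). Adamts12, its nearest relative in sequence and substrate, had 24, 27 and 17 reads from woodrats against 10, 5 and 1 from lab rats, a difference toward woodrats that did not pass the threshold (log2 fold change 2.09, SE 0.61, FDR = 0.0256). Adamts10, which acts on fibrillin microfibrils, averaged 23.7 ± 9.14 CPM (SD, n = 3) among woodrats and 15.8 ± 0.0611 CPM (SD, n = 3) among lab rats (FDR = 0.207), and Adamts17 overlapped (FDR = 0.464). Adamts13, the protease of von Willebrand factor, had 1, 4 and 1 reads in woodrats and 0 in each lab rat. The FDR of Adamts8 was 0.0245 and 0.0361 without woodrats 1 and 2 and 0.0382, 0.0312 and 0.036 without lab rats 1, 2 and 3. That of Adamts7 was 0.0132, 0.0168 and 0.0138 without woodrats 1, 2 and 3 and 0.0168, 0.0177 and 0.0157 without lab rats 1, 2 and 3.

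The Adamts-like proteins lack the protease domain and bind matrix, several of them fibrillin microfibrils. All 5 were tested, all 5 had a positive log2 fold change, and 0 passed an FDR of 0.01 in edgeR (2 of the 5 had an unadjusted p below 0.05, and DESeq2 called Adamtsl2). Adamtsl4, which is needed to hold the eye lens in place, had 111, 119 and 84.8 CPM in woodrats and 46.5, 63.2 and 69.5 CPM in lab rats. No woodrat was as low as a lab rat, and a log2 fold change was 0.81 ± 0.25 SE (FDR = 0.0339). Adamtsl2, a binding partner of fibrillin that is mutated in a short-stature dysplasia, had 1.95, 6.25 and 9.24 CPM in woodrats and 1.61, 0.827 and 1.54 CPM in lab rats (log2 fold change 2.13, SE 0.60, FDR = 0.0231). Woodrat 1 lay only just above the lab rats. Adamtsl1, Adamtsl3 and Adamtsl5 overlapped between the species, with FDR values from 0.164 to 0.607, and the log2 fold change of Adamtsl1 turned from 0.47 to -0.60 without woodrat 2.

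Levels were also summed over all genes of each family. The 56 members together overlapped between the species, with 1108, 1047 and 899 CPM in woodrats and 968, 958 and 1049 CPM in lab rats. The 16 Mmp genes summed to 196, 171 and 155 CPM in woodrats and 215, 214 and 219 CPM in lab rats, so that all woodrats were below all lab rats. The 14 Adam genes summed to 242, 311 and 365 CPM against 437, 421 and 392 CPM, also without overlap. Single genes weighed heavily in both sums, which do not describe a decrease across each family. Mmp2 averaged 41.2 and 88.3 CPM of mean Mmp sums of 174 and 216 CPM in woodrats and lab rats. Adam15, which was not called, averaged 101 and 216 CPM of mean Adam sums of 306 and 416 CPM. Among tested Adam genes, 5 had a positive and 5 a negative log2 fold change, and among Mmp genes 4 and 6. The 4 Timp genes summed to 357, 255 and 189 CPM against 168, 146 and 234 CPM, and the 5 Adamts-like genes to 145, 166 and 115 CPM against 63.3, 81.2 and 93.8 CPM. Timp sums overlapped, while Adamts-like sums did not. The 17 Adamts genes summed to 168, 144 and 74.5 CPM in woodrats and 84.9, 95.9 and 111 CPM in lab rats, which overlapped.

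Of the 15 members under the filter, 5 had at most 3 reads in every animal and the highest count in any was 10. Adamts6 had 10, 9 and 6 reads from woodrats against 5, 2 and 1 from lab rats, and Adamts19 had 0, 0 and 4 reads against 3, 6 and 0. In the edgeR test without the filter, 0 of the 15 passed an FDR of 0.01, and Mmp9, Adamts13 and Adamts6 had an unadjusted p below 0.05 (FDR = 0.0271, 0.0931 and 0.103). Every woodrat was above every lab rat in these 3 genes, as in 28.8% of all genes tested. They were picked by their p in the same counts, so the separation adds no further evidence.

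Proteins that activate, inhibit or partner these enzymes were examined as a list of 28 genes in the files, of which 26 were tested. At an FDR below 0.01, 1 was more abundant and 2 were less abundant in woodrats, beside 20.0% of all genes called, and the median log2 fold change was -0.24. Alpha-2-macroglobulin (A2m), a plasma-type inhibitor that traps proteases of many kinds, had 0.977, 1.39 and 0.474 CPM in woodrats and 12.7, 8.77 and 15.6 CPM in lab rats. The lab rats were all well above the woodrats (log2 fold change -3.70, SE 0.48, FDR = 0.00114), and the call held in all 6 fits that left out 1 animal.

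Lrp1, the endocytic receptor that clears protease and inhibitor complexes, had 218, 274 and 233 CPM in woodrats and 117, 111 and 106 CPM in lab rats. Both species varied little around their means, with a log2 fold change of 1.12 ± 0.23 SE (FDR = 0.0063). Rhbdf1, an inactive rhomboid that carries Adam17 to the cell surface, had 35.9, 41.6 and 46.7 CPM in woodrats and 81.5, 81.7 and 106 CPM in lab rats. It was lower in every woodrat, by a log2 fold change of -1.11 ± 0.23 SE (FDR = 0.00708). The related Rhbdf2 averaged 21.9 ± 7.74 CPM (SD, n = 3) among woodrats and 32.7 ± 4.01 CPM (SD, n = 3) among lab rats and did not pass the test (FDR = 0.162).

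Furin, the convertase that removes the inhibitory prodomain of Adam, Adamts and membrane-type Mmp precursors, had 96.1, 98.5 and 121 CPM in woodrats and 61.3, 55.9 and 31.2 CPM in lab rats. The species did not overlap, but the log2 fold change of 1.09 (SE 0.29) stayed short of the threshold (FDR = 0.02). Urokinase (Plau), which activates plasminogen, and Reck, a membrane-anchored inhibitor of Mmp enzymes, had FDR values of 0.0845 and 0.171. Of the 8 tested partners of Adam10 and Adam17, which are the inactive rhomboids, Frmd8 and tetraspanins, Rhbdf1 alone passed the threshold in edgeR. The tetraspanins did not overlap between the species, as was the case in 56.2% of all genes tested. Tspan33 passed the filter on low counts through the woodrats alone, so its separation followed from the filter. Tspan33, Tspan5, Tspan15 and Tspan17 had log2 fold changes of 4.36, 1.48, 1.60 and 0.93 (FDR = 0.0168, 0.013, 0.0328 and 0.0471). Tspan14 had -1.38 (FDR = 0.0233). DESeq2 called Tspan33, Tspan5 and Tspan14, and Tspan33 had 0, 2 and 0 reads from lab rats 1, 2 and 3. With 1 animal left out, the FDR of Rhbdf1 was 0.0191 and 0.0321 without woodrats 1 and 2 and 0.0221, 0.0223 and 0.0136 without lab rats 1, 2 and 3. For Lrp1 it was 0.0396 without woodrat 2 and 0.0301, 0.0326 and 0.0128 without lab rats 1, 2 and 3.

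**Figure D5:**
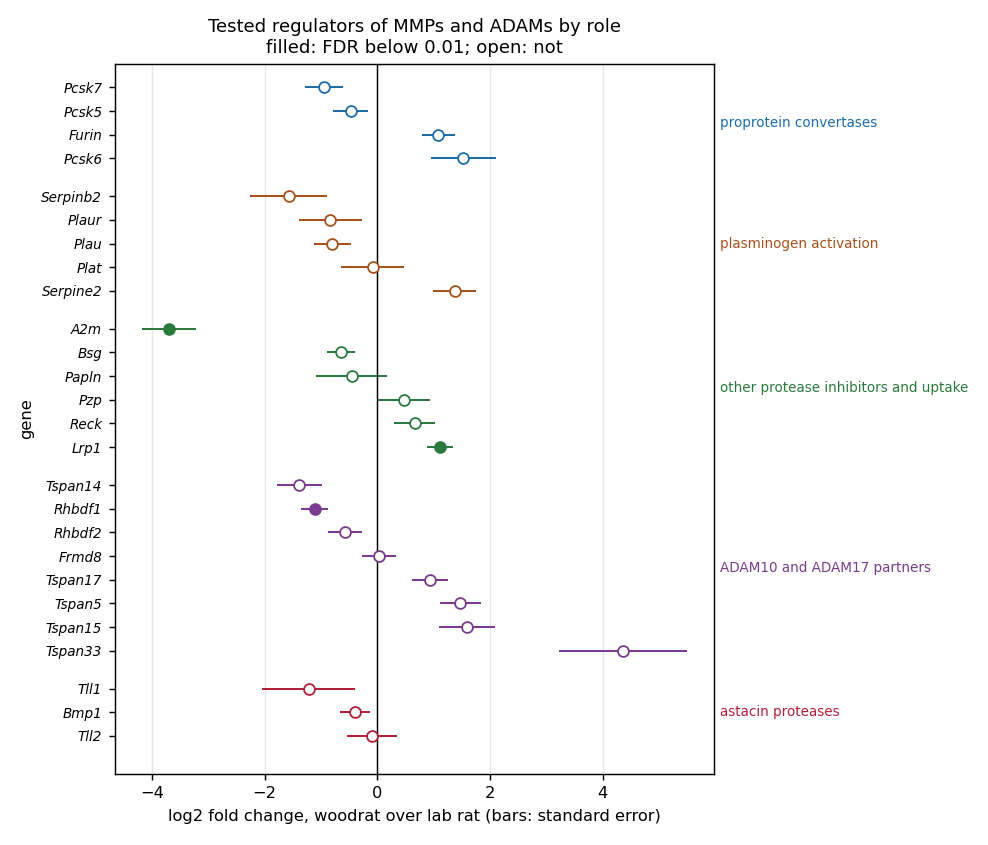
Log2 fold change of woodrats over lab rats for the 26 tested activators, inhibitors and partners of these enzymes, by role, with standard errors as bars; filled points passed an FDR of 0.01. Lrp1 is filled on the woodrat side and A2m and Rhbdf1 on the lab rat side.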

How the data were processed

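PolyA RNA from the foregut of 3 woodrats and 3 lab rats was sequenced, and species and animal number were taken from the sample labels. The authors prepared stranded libraries, used Trimmomatic for trimming and FLASH to merge pairs that overlapped, mapped both species to coding transcripts of the mouse by cross_match (in the paper these come from GENCODE M7, while the labels name the mm9 build), collapsed alignments to genes, and deposited raw counts of uniquely assigned reads per gene; versions are not given in the sources used here. A count therefore also depends on how well each species' sequence aligns to the mouse transcript, which was not tested here. The paper examined substitutions per read and mapping to each species' own transcripts, and reported no global bias. Its mean substitution per read was higher for woodrat than for lab rat reads.

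Genes that reached 1 CPM in 3 or more animals were tested in R 4.3.3 with edgeR 4.0.16 (TMM factors, quasi-likelihood F-test by the method used before version 4, prior count 0.125, species as the only term), with Benjamini-Hochberg adjustment over all 12603 genes tested and calls at an FDR below 0.01. The standard error is the size of the log2 fold change divided by the square root of F. CPM values are TMM-normalized, and intervals and floors cover counting error only. No batch was given for the 3 animals per species. The p-values set the species difference against a spread between animals that was estimated with information shared over all genes. Counts of same-species animals differed by more than sampling noise in every pair (chi-square per degree of freedom from 10.1 to 121). In simulated counts of this comparison over 12603 genes, 75 of 100 genes with a log2 change of 2 and 100 of 100 with a change of 4 were recovered, with 2 false calls. The simulation gave every gene the same spread between animals and changed only genes above a minimum mean count. Recovery and false calls for members with few reads or another spread were therefore not measured. Levels are not compared between genes, since no transcript lengths were used.

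Members and lists were chosen with earlier results of these data known. Genes are named where they were called, are Timp genes, were among the 10 members with the highest mean CPM in a species, were the highest of their role, or lacked reads in 1 species. Of the regulators, those called are named, with Furin, Reck, Plau, Rhbdf2 and the tetraspanins. A gene of the regulator list and a gene of the leukocyte list are not reported here and were left out of the counts and sums. Other members are named to account for every one. Marker lists covered smooth muscle, fibroblasts, squamous epithelium, leukocytes, endothelium, glandular stomach and skeletal muscle. Alternatives were other scalings and filters, DESeq2 1.42.0, edgeR's newer method, the replicate number as a block, an FDR of 0.05 and each animal left out, with the tested genes kept.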

Additional observations from a re-analysis of the deposited data

How the results depend on the processing

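Of the 11 members called, Mmp19, Mmp28, Adam8 and Adam28 were past the threshold in every alternative run. Of 7 other settings of scaling, filter or model with all animals, Adamts8 was called in 3 and Mmp2 and Adam19 in 4. Adam33 was called in 5, and Mmp17, Mmp23 and Adamts7 in 6. The count of 11 was 7 with total counts only, 5 with the replicate block, 20 at an FDR below 0.05, and from 4 to 10 when 1 animal was left out. Over all genes, the 2516 calls became 1813 with total counts only, 716 with the replicate block and 5026 at an FDR below 0.05. They became 2526 with DESeq2 size factors, 3916 under DESeq2 and 1966 with the filter at 5 CPM. When 1 animal was left out, from 898 to 2626 of all genes were called. The 4 members higher in woodrats became 2 with DESeq2 size factors, 1 with total counts only, 2 with the filter at 5 CPM, 7 under DESeq2, 1 with the replicate block and 11 at an FDR below 0.05, and from 0 to 5 without 1 animal. The 7 lower in woodrats became 4 with the replicate block and from 4 to 5 without 1 animal. The 3 regulators called became 8 under DESeq2, 0 with the replicate block in edgeR (11 had an unadjusted p below 0.05) and 10 at an FDR below 0.05, and from 1 to 5 without 1 animal. The sign of the log2 fold change turned in 11 fits of 6 tested members, none of them called. These were Timp4 (-0.16 without lab rat 2) and Adam23 (-0.027 without woodrat 3 and -0.073 without lab rat 3), whose log2 fold changes without 1 animal ran from -0.16 to 1.03 and from -0.073 to 0.44, Adamts5 (-0.51 without woodrat 2 and -0.056 without lab rat 3), Adamtsl1 (-0.60 without woodrat 2), Mmp15 (0.047 without woodrat 1) and Mmp24 (-0.0052 with total counts only, and -0.25, -0.094 and -0.24 without lab rat 1, lab rat 3 and woodrat 1). The cause of these changes was not tested.

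The labels do not say that animals of the same number belong together. Same-numbered animals deviated from their species means with correlations of -0.289, -0.0881 and -0.279 over the 3 pairs. The mean was -0.219, beside 0.107 for animals of different number. Deviations from a mean of 3 animals cancel within a species, so these values are tied together and cannot show whether animals were paired. The replicate block lowered the calls over all genes from 2516 to 716. The 15 members under the filter had at most 10 reads in any animal, with 3 reads equal to 0.355 to 0.586 CPM per library.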

Other observations

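Endothelial markers, which belong in no comparison above, summed to 37.5, 70.9 and 68.8 CPM in woodrats 1, 2 and 3 and to 98.4, 96.6 and 78.2 CPM in lab rats 1, 2 and 3 over 6 genes, of which 1 (Egfl7) was lower in woodrats and 5 did not pass the edgeR test. The 5 skeletal muscle markers in the files summed to 332, 210 and 142 CPM in woodrats and 20.8, 33.6 and 46.8 CPM in lab rats, but most of this sum was Ckm, muscle creatine kinase, which was called higher in woodrats (330.5, 209.9 and 139.7 CPM against 16.1, 26.3 and 36.4 CPM). The other 4 (Myh1, Myh2, Tnnt3 and Mylpf) were each lower in every woodrat than in any lab rat, with at most 27 reads in an animal, and 0 were called by edgeR (Tnnt3, the one of them tested, had FDR = 0.0321). Among the glandular stomach markers Muc5ac was called higher in woodrats, with 17, 12 and 33 reads against 0 in each lab rat.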
